A study of Rattus norvegicus with 3 samples.

Results

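The 7 genes described here encode signals that granulosa cells send to the oocyte, their receptors, and connexins that couple these cells: Nppc, Npr2, Kitlg, Kit, Gja1, Gja4 and Gjb2. They were chosen by name, and all 12 probe sets that the platform annotation pairs with 1 of these symbols alone were read, of 31099 probe sets and 14218 genes on the array. RNA came from primary ovarian granulosa cells in culture. The donors were female Sprague-Dawley rats, immature at 24 to 25 days of age, whose follicles had been primed for 48 h with pregnant mare's serum gonadotropin. All cultures carried an adenovirus at 50 pfu per cell, and the 6 h of culture with or without stimulus began 24 h after infection. The first group received Ad-NFIL3, which delivers the transcription factor NFIL3, and was stimulated for 6 h with a mixture called FSK/PMA below. It held forskolin at 10 uM, an activator of adenylyl cyclase, and the phorbol ester PMA at 20 nM, an activator of protein kinase C, and mimics the hormone that triggers ovulation. The second group received Ad-GFP, which delivers green fluorescent protein, with the same stimulus, and the third received Ad-GFP with no stimulus. Each group was 1 array, hybridised with RNA pooled from 3 experiments, so the spread between cultures is not known and no test or p-value is given.

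Granulosa cells and the oocyte exchange small molecules and paracrine factors. C-type natriuretic peptide, made from Nppc in mural granulosa cells, binds the receptor guanylyl cyclase NPR2 on neighbouring follicle cells, and the cGMP that is formed passes through gap junctions into the oocyte and helps to hold it in meiotic arrest. The ovulatory hormone surge is known to end this arrest, in part by lowering the peptide and closing junctions. KIT ligand, from Kitlg, is made by granulosa cells and acts on the receptor KIT of oocytes and theca cells in oocyte growth. Gja1 encodes the main connexin between granulosa cells, Gja4 the connexin known from junctions with the oocyte, and Gjb2 a connexin best known from liver and the inner ear.

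Signals are MAS5 intensities, linear and 1 per probe set. Before log2, low values were raised to a floor of 126, which is the median of all signals on the 3 arrays. The brightest probe set stood for its gene, and a gene entered a comparison if it was above the floor on either array. With the other array under the floor, the fold is only a bound. As a check of the labels, the 1 probe set of Nfil3 had a signal of 5882 on the Ad-NFIL3 array, against 1321 with Ad-GFP and FSK/PMA and 564 on the unstimulated array. The labels do not say whether the virus carries the stretch that this probe set reads, so the check is limited. Arrays had been scaled by the authors to a common trimmed mean, and between 48.1% and 51.8% of probe sets lay above the floor. After this scaling the 18 probe sets for spiked hybridisation controls had a median ratio of 1.36 for FSK/PMA over unstimulated and 1.06 for Ad-NFIL3 over Ad-GFP.

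The libraries held genes of the labelled cell type and some of other types. Of 13 granulosa markers on the array, 12 were measured, and Inha, the inhibin alpha subunit, had signals of 18604 with Ad-NFIL3 and FSK/PMA, 29911 with Ad-GFP and FSK/PMA and 26489 without stimulus. Of 11 theca and stroma markers, between 3 and 5 were above the floor on an array. The matrix gene Col3a1 had signals of 341 with Ad-NFIL3 and FSK/PMA, 331 with Ad-GFP and FSK/PMA and 395 without stimulus, and Dcn, decorin, was 2.45-fold higher with NFIL3, while the theca genes Cyp17a1 and Insl3 were below the floor on all 3. Of 9 endothelial markers, 2 were measured, Kdr with a highest signal of 190 and Egfl7 with 216, and Pecam1 was below the floor. Of 11 leukocyte and mast cell markers, between 3 and 7 were above the floor. Cd14 had the highest signals of these, 1562 with Ad-NFIL3 and FSK/PMA, 1488 with Ad-GFP and FSK/PMA and 606 without stimulus, Fcer1g and Cd68 were also above the floor on all 3 arrays, and Ptprc was below it. Red cell genes were bright: Hbb, beta globin, had signals of 15376 with Ad-NFIL3 and FSK/PMA, 18005 with Ad-GFP and FSK/PMA and 19442 without stimulus. Hba-a3, an alpha globin gene, had 4672 with Ad-NFIL3 and FSK/PMA, 5448 with Ad-GFP and FSK/PMA and 12291 without stimulus, 2.26-fold lower with FSK/PMA, and Alas2, of heme synthesis in red cells, was 1.37-fold lower. Of 7 oocyte markers on the array, 2 were measured. Gdf9, Bmp15, Zp1, Zp3 and Mos were below the floor on all 3 arrays, while Zp2 had signals of 269 with Ad-NFIL3 and FSK/PMA, 406 with Ad-GFP and FSK/PMA and 891 without stimulus, 2.20-fold lower with FSK/PMA. Bmp6, the other one, which cells other than oocytes also make, was 2.05-fold higher. In RNA of whole cultures, fewer cells of a type and less RNA per cell cannot be told apart.

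Of the 7 genes, Npr2, Kitlg and Gja1 were above the floor on all 3 arrays and Nppc on the unstimulated array alone. Kit, Gja4 and Gjb2 were below it on all 3 arrays. Of the 4 measured in the FSK/PMA comparison, Kitlg was over 2-fold higher with the stimulus, Nppc was over 2-fold lower, and Npr2 and Gja1 were lower by less than 2-fold in their brightest probe sets. Across all 9395 genes measured in that comparison, 7.44% were at least 2-fold higher and 11.4% at least 2-fold lower (18.9% together), and 4 genes are too few to read as a share against this. None of the 3 genes measured in the NFIL3 comparison differed by 2-fold. Across 9397 genes measured there, 1.34% were at least 2-fold higher and 0.958% at least 2-fold lower (2.3% together), so a count of 0 in 3 does not set them apart either.

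**Figure D1:**
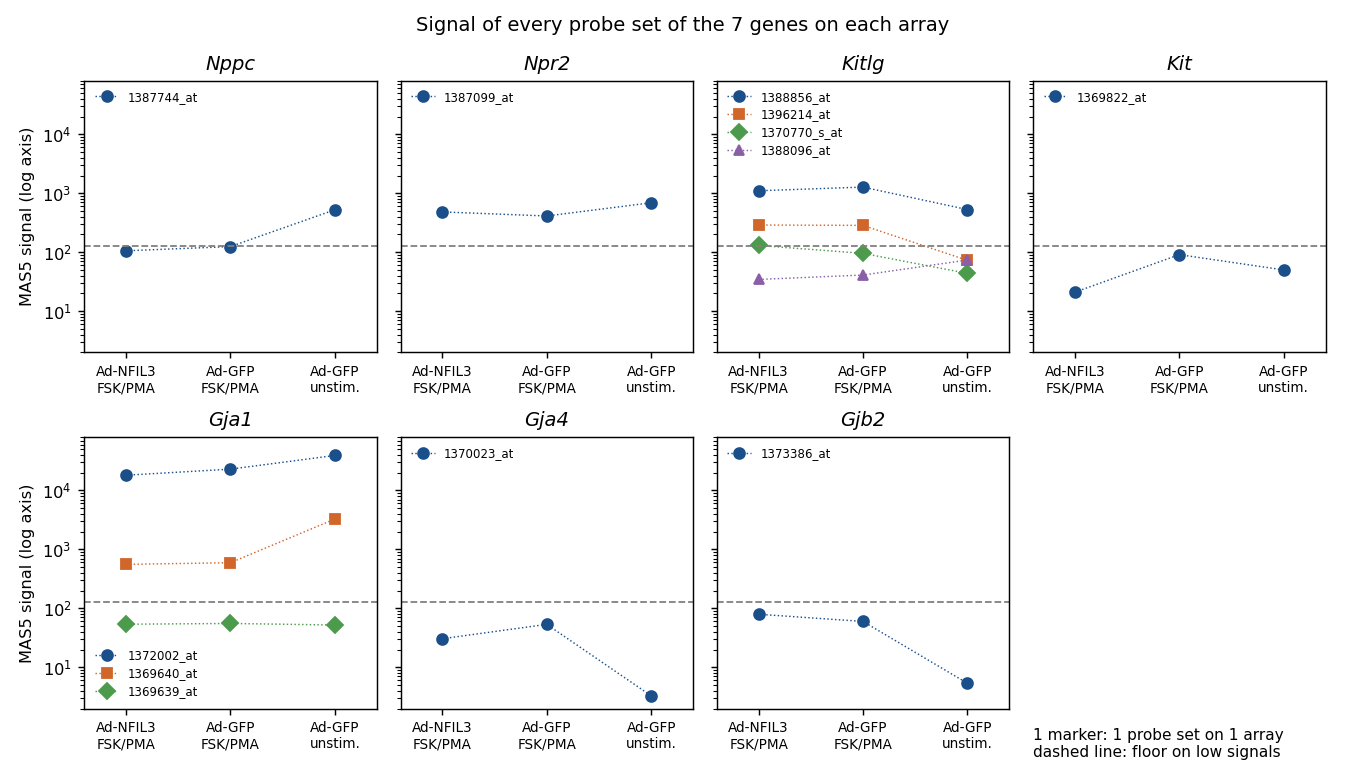
MAS5 signal (log axis) of all 12 probe sets on the arrays with Ad-NFIL3 and FSK/PMA, Ad-GFP and FSK/PMA, and Ad-GFP without stimulus, 1 panel per gene, with the floor of 126 as a dashed line and 1 marker per probe set. The brightest Kitlg probe set is higher on both stimulated arrays, Nppc is above the floor on the unstimulated array only, and Kit, Gja4 and Gjb2 stay below it on all 3.

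The promoters of the genes that differed are shown because Nppc and Kitlg were the 2 genes past 2-fold, in opposite directions, and Gja1 had a second probe set past 2-fold. The windows run from 250 bases before to 50 bases after the gene's start and come from RefSeq, build GRCr8; 6 of the 7 genes matched, and Npr2 did not. They lie at chr9:94772137-94772436 on the minus strand (Nppc), chr7:36782410-36782709 on the plus strand (Kitlg) and chr20:36302314-36302613 on the plus strand (Gja1), and capitals mark the motifs found.
Nppc: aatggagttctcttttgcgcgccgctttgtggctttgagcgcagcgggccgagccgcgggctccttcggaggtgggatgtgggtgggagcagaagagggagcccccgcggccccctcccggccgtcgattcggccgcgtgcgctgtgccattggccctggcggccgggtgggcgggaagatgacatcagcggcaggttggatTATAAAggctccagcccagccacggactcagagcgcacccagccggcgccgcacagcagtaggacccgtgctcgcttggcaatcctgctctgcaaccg
Kitlg: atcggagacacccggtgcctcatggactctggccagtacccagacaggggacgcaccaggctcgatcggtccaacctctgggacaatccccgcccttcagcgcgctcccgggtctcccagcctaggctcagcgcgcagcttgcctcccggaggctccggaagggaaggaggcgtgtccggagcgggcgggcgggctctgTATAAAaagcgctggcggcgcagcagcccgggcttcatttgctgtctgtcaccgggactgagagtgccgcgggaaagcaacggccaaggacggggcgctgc
Gja1: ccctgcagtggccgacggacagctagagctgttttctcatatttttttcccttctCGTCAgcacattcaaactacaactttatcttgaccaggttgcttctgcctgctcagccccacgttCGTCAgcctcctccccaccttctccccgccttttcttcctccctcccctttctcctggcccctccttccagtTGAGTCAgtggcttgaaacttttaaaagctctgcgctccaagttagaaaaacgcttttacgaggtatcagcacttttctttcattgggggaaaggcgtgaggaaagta
Both strands of the 6 windows were searched for the NFIL3 motifs TTACGTAA and TTATGTAA and the cAMP response element TGACGTCA, and none of the 6 held any of these. Among all 33469 promoter windows, 0.12%, 0.893% and 1.83% held them, in that order. The AP-1 motif TGANTCA, which 7.33% of all windows held, was found in Gja1 alone, 58 bases before its start. The shorter letters TGACG, the core of the cAMP response element, were in 21.2% of all windows and in those of Gja1 and Gjb2. The TATA box letters TATAAA, in 14.2% of all windows, were in those of Nppc and Kitlg, 48 and 51 bases before the start. No 2 of the matches overlapped. Nppc and Kitlg windows were both 68.0% G and C and that of Gja1 50.3%, against a median of 51.7% over all windows. The genes below the floor had similarly high values, 69.0% for Kit, 68.0% for Gjb2 and 65.3% for Gja4. A match here is a run of letters and not a measured binding site, and an absent motif says only that these letters are not in this window.

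Among the ligands, Nppc was the gene with the larger difference. Its 1 probe set, 1387744_at, had signals of 106 with Ad-NFIL3 and FSK/PMA, 125 with Ad-GFP and FSK/PMA and 525 on the unstimulated array. Both stimulated arrays thus lay below the floor, that of Ad-GFP just below it. With FSK/PMA in Ad-GFP cells Nppc was at least 4.17-fold lower than without stimulus, a log2 difference of -2.06. The unfloored ratio of these signals was 0.237, close to that bound because the signal of 125 was so near the floor. With a floor at the 75th percentile of signals, 547, Nppc was below it on all 3 arrays and not measured. No difference with NFIL3 is given for Nppc, since both arrays of that comparison were below the floor.

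Kitlg had 4 probe sets, and the 2 brightest were both higher with the stimulus. The brightest, 1388856_at, had signals of 1103 with Ad-NFIL3 and FSK/PMA, 1273 with Ad-GFP and FSK/PMA and 528 without stimulus. It was 2.41-fold higher with FSK/PMA, a log2 difference of 1.27, and differed by -0.21 between Ad-NFIL3 and Ad-GFP. The second, 1396214_at, had signals of 289 with Ad-NFIL3 and FSK/PMA, 285 with Ad-GFP and FSK/PMA and 72.7 without stimulus. It was at least 2.27-fold higher with FSK/PMA and differed by 0.02 with NFIL3. Both therefore ran the same way, high on the 2 stimulated arrays and low on the unstimulated one. With the mean of the 3 probe sets that were above the floor on any array in place of the brightest, the FSK/PMA difference was 0.82, inside 2-fold. The third, 1370770_s_at, had 130 with Ad-NFIL3 and FSK/PMA, 95.7 with Ad-GFP and FSK/PMA and 43.8 without stimulus, and was above the floor on the Ad-NFIL3 array only. The suffix of this probe set marks it as one that can bind several transcripts. The fourth, 1388096_at, was below the floor on all 3 arrays, with 34.6 with Ad-NFIL3 and FSK/PMA, 41.1 with Ad-GFP and FSK/PMA and 73.8 without stimulus.

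Of the receptors, only Npr2 was measured. Its 1 probe set had signals of 483 with Ad-NFIL3 and FSK/PMA, 412 with Ad-GFP and FSK/PMA and 690 without stimulus. Npr2 was 1.68-fold lower with FSK/PMA, a log2 difference of -0.74, and differed by 0.23 with NFIL3. The unstimulated array was the highest of the 3, and the peptide gene Nppc and its receptor gene were thus both lower with the stimulus, by different amounts. The 1 probe set of Kit had 21.0 with Ad-NFIL3 and FSK/PMA, 91.0 with Ad-GFP and FSK/PMA and 50.1 without stimulus, all under the floor, so no fold is given. KIT is known as a receptor of oocytes and theca cells, and of mast cells. In the same libraries 2 of 7 oocyte markers, Zp2 and Bmp6, and between 3 and 5 of 11 theca and stroma markers were above the floor. The mast cell gene Ms4a2 was under the floor on all 3 arrays, and Cpa3 had signals of 154 with Ad-NFIL3 and FSK/PMA, 48.4 with Ad-GFP and FSK/PMA and 80.7 without stimulus.

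Among the connexins, Gja1 had a strong signal and 2 probe sets that differed in size. The brightest, 1372002_at, had signals of 18090 with Ad-NFIL3 and FSK/PMA, 22930 with Ad-GFP and FSK/PMA and 39138 without stimulus. It was 1.71-fold lower with FSK/PMA, a log2 difference of -0.77, and differed by -0.34 with NFIL3. The second, 1369640_at, had 557 with Ad-NFIL3 and FSK/PMA, 594 with Ad-GFP and FSK/PMA and 3271 without stimulus, 5.51-fold lower with FSK/PMA, a log2 difference of -2.46. Both were thus highest on the unstimulated array, by amounts that lay 1.69 apart on the log2 scale. Among 1590 genes with 2 probe sets above the floor on both arrays of that comparison, the median gap was 0.31 and 0.566% had a gap at least this large. The signal of 1372002_at was the highest of all 31099 probe sets on the unstimulated array, where it ranked 1, and ranked 109 with Ad-GFP and FSK/PMA and 165 with Ad-NFIL3 and FSK/PMA. Whether brightness at the top of an array narrowed its difference was not tested. With quantile normalization this probe set differed by -1.12 and with cyclic loess by -1.11, past 2-fold, and the mean of both probe sets above the floor differed by -1.62. In the NFIL3 comparison the second probe set differed by -0.09. The last probe set, 1369639_at, was between 52.2 and 55.4 on all 3 arrays, below the floor.

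The other 2 connexin genes were not detected above the floor. Gja4 had signals of 30.5 with Ad-NFIL3 and FSK/PMA, 53.5 with Ad-GFP and FSK/PMA and 3.28 without stimulus. Gjb2 had 79.4 with Ad-NFIL3 and FSK/PMA, 59.9 with Ad-GFP and FSK/PMA and 5.35 without stimulus. In both the unstimulated array had the lowest signal, but MAS5 subtracts mismatch signals and values this low have no reliable order, so no fold is given. At this signal a change of either gene was not detectable.

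The size of these differences can be set only beside the disagreement between probe sets of the same gene. Genes with 2 probe sets above the floor gave a robust SD of the log2 difference that was 0.33 for FSK/PMA and 0.23 for NFIL3. The FSK/PMA difference of Kitlg was 3.86 times that SD, that of Gja1 2.34 times and that of Npr2 2.26 times. The SD came from probe sets above the floor on both arrays. Nppc was below the floor with Ad-GFP and FSK/PMA, so no multiple is given for it. With NFIL3, Kitlg and Npr2 differed by less than 1 such SD, at 0.895 and 0.986 times, and Gja1 by 1.47 times. In the main setting, then, the 2 stimulated arrays lay within the disagreement of probe sets for Kitlg and Npr2. The unstimulated array was compared only with the stimulated Ad-GFP array. Npr2 was inside 2-fold there in all 9 settings, and at -0.33 with the floor at 547. This SD leaves out differences between cultures, which 1 array per group cannot show.

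**Figure D2:**
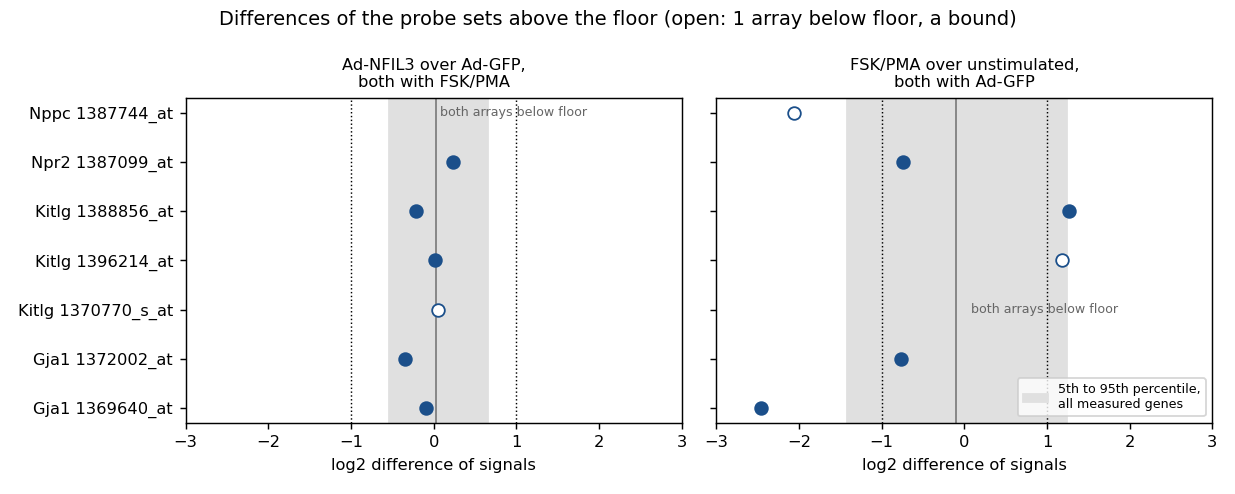
Log2 differences of the 7 probe sets above the floor on at least 1 array, for Ad-NFIL3 over Ad-GFP on the left and FSK/PMA over unstimulated on the right, with filled points where both arrays were above the floor and open points for bounds. The grey band spans the 5th to 95th percentile of all measured genes and the grey line their median, and dotted lines mark 2-fold. The Nppc bound (-2.06) and the second Gja1 probe set (-2.46) lie left of the band with FSK/PMA, and all points lie inside it with NFIL3.

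The wider cGMP pathway was read from a list of natriuretic peptides, guanylyl cyclases, phosphodiesterases and related genes. Of 30 listed genes 25 were on the array and 9 were measured with FSK/PMA. Of these, 5 were at least 2-fold lower and 1 was higher, against 11.4% and 7.44% of all measured genes. The median log2 difference was -1.56, against -0.10 over all measured genes. Nppc and Gucy1b1, both among the lower genes, were above the floor on the unstimulated array alone. They entered the count only through the array where they were high. The list was chosen with earlier results of these data known, so the count is a description only. Without Nppc and Npr2, 4 of 7 were lower and 1 was higher. With the higher floor, 2 of 6 measured genes of the whole list were lower, 1 was higher and the median was -0.47, and with the lower floor 5 of 17 were lower and the median was -0.51. Gucy1a1, a subunit of the guanylyl cyclase that nitric oxide activates, had signals of 834 with Ad-NFIL3 and FSK/PMA, 789 with Ad-GFP and FSK/PMA and 4172 without stimulus, and was 5.29-fold lower with FSK/PMA. Its partner subunit gene Gucy1b1 had 110 with Ad-NFIL3 and FSK/PMA, 122 with Ad-GFP and FSK/PMA and 477 without stimulus, at least 3.79-fold lower. A second probe set of each ran the same way, with log2 differences of -1.98 for Gucy1a1 and -1.44, a bound, for Gucy1b1. Gucy1a1 was above the floor on all arrays and highest on the unstimulated array. With NFIL3 it differed by 0.08 on the log2 scale, and by 0.34 in its second probe set. Nppc and Gucy1b1 were below the floor on both stimulated arrays, so they could be measured only as lower with FSK/PMA. Their signals on those arrays are too low to compare, and a pattern shared with Gucy1a1 cannot be read from them.

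Other genes of that list differed as well. Abcc4, a transporter that carries cyclic nucleotides and prostaglandins out of cells, was 2.95-fold lower with FSK/PMA. Pde6d, which despite its name is best known as a carrier of prenylated proteins, was 3.79-fold lower, or -0.61 on the log2 scale, inside 2-fold, with the floor at 547. Pde10a, a phosphodiesterase that breaks down both cAMP and cGMP, was 3.57-fold higher, with a log2 difference of 1.77 in a second probe set. Furin, a protease that cuts the natriuretic peptide precursor, was 1.66-fold higher. Pde3a, the phosphodiesterase that cGMP inhibits in the oocyte, and Pde5a, which breaks down cGMP, were below the floor on all 3 arrays, as were the receptor genes Npr1 and Npr3. With NFIL3, 0 of 7 measured genes of the list were past 2-fold, against 2.3% of all measured genes. Their median was 0.23, against 0.03 over all measured genes. With arrays scaled to their medians it was -0.09.

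Granulosa markers also differed with the stimulus in the same libraries. Of 12 measured, 7 were at least 2-fold lower and 2 were higher with FSK/PMA, against 11.4% and 7.44% of all measured genes. The median of the 12 was -1.30. The summed signal of the list was 53187 with Ad-NFIL3 and FSK/PMA, 81883 with Ad-GFP and FSK/PMA and 97603 without stimulus. Bright genes weigh most in such a sum. With FSK/PMA, Inhba had 8520 with Ad-NFIL3 and 21912 with Ad-GFP, and Inha had 18604 and 29911. Cyp11a1, also bright, differed by -0.04 on the log2 scale with NFIL3. The lower ones were Inhbb and Fst, the inhibin beta B subunit and follistatin, at 10.1-fold and 3.78-fold, Hsd17b1, of estradiol synthesis, at 3.76-fold, and the transcription factor genes Foxl2 and Nr5a2 at 3.39-fold and 3.00-fold. The receptor genes Lhcgr and Amhr2 were 2.68-fold and 2.26-fold lower. The higher ones were the steroidogenic enzyme genes Cyp19a1, at least 19.8-fold, and Cyp11a1, 3.08-fold. With NFIL3, 4 of 12 were at least 2-fold lower (Hsd17b1, Inhba, Cyp19a1 and Lhcgr) and 0 higher, with a median of -0.24. Over all measured genes these shares were 0.958% and 1.34%. With the mean of probe sets 3 of 12 were lower, and with the floor at 547 3 of 11. Other probe sets differed by -0.57 for Lhcgr, -0.93 for Inhba, and -1.44 and -0.99 for Cyp19a1. The red cell list had a summed signal of 20385 with Ad-NFIL3 and FSK/PMA, 23815 with Ad-GFP and FSK/PMA and 32227 without stimulus. The part of granulosa and red cell genes in the differences of Nppc, Npr2 and Gja1 was not tested.

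The leukocyte and mast cell list had a summed signal of 3070 with Ad-NFIL3 and FSK/PMA, 2536 with Ad-GFP and FSK/PMA and 1664 without stimulus. Cd14, 2.46-fold higher with FSK/PMA, carried the stimulus difference of that sum between the Ad-GFP arrays. The other 10 genes summed to 1508 with Ad-NFIL3 and FSK/PMA, 1048 with Ad-GFP and FSK/PMA and 1059 without stimulus. Without Cd14 the sum was thus not higher with the stimulus in Ad-GFP cells, and was highest on the Ad-NFIL3 array. Both sums include genes under the floor, whose low signals have no reliable order.

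The connexin and pannexin family had 13 of 23 listed genes on the array and 3 above the floor: Gja1, Gjc1 and Panx1. Gjc1, another connexin, had signals of 472 with Ad-NFIL3 and FSK/PMA, 339 with Ad-GFP and FSK/PMA and 159 without stimulus, 2.13-fold higher with FSK/PMA. Panx1, which forms channels of the cell membrane rather than gap junctions, had 362 with Ad-NFIL3 and FSK/PMA, 474 with Ad-GFP and FSK/PMA and 158 without stimulus, 3.00-fold higher. Both ran opposite to Gja1 with the stimulus, and each had 1 probe set above the floor. With the floor at 547 neither was measured. Across all measured genes 7.44% were at least 2-fold higher with FSK/PMA. With NFIL3 their log2 differences were 0.48 and -0.39, within 2-fold.

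Genes for partners of connexins and for the adhesion of granulosa cells were read in the same way. Of 18 measured, 1 was at least 2-fold higher and 0 were lower with FSK/PMA, with a median of -0.12, against 18.9% past 2-fold over all genes. With quantile normalization and with cyclic loess 2 were higher and 1 was lower, and with arrays scaled to their medians 2 were higher. With the floor at 547, 0 of 13 were past 2-fold, so the count depends on the scaling and the floor. The gene higher in the main setting was Prkca, a protein kinase C that can phosphorylate the product of Gja1, at 2.22-fold higher. Prkca had 411 with Ad-GFP and FSK/PMA and 185 without stimulus, and was not measured with the floor at 547. Cav1, the caveolin gene, was at least 1.89-fold higher, with a log2 difference of 0.48 in a second probe set. With the other scalings Cav1 differed by 1.03 to 1.05 on the log2 scale, past 2-fold. It stayed inside 2-fold with the mean of probe sets (0.70), the pseudocount (0.89) and a floor at the 25th percentile (0.97). Cdh2, the N-cadherin gene, was 1.76-fold lower, and Tjp1, a scaffold that binds the tail of the Gja1 product, differed by 0.11 on the log2 scale. With NFIL3, 1 of 18 was past 2-fold, against 2.3% of all measured genes. That gene, Cav1, had 486 with Ad-NFIL3 and FSK/PMA and 238 with Ad-GFP and FSK/PMA, 2.04-fold higher. A second probe set differed by 0.75 on the log2 scale. With the pseudocount, the mean of probe sets and each of the other scalings Cav1 differed by between 0.79 and 0.98, inside 2-fold. Ccn3, whose product binds that of Gja1, had 3323 with Ad-NFIL3 and FSK/PMA, 1736 with Ad-GFP and FSK/PMA and 3447 without stimulus. It was 1.99-fold lower with FSK/PMA, and past 2-fold with quantile normalization and cyclic loess (-1.04 each), and 1.91-fold higher with NFIL3; the 2 comparisons share the array with Ad-GFP and FSK/PMA, the lowest of the 3.

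The KIT list held the ligand gene Kitlg, Adam17, Kit and genes that act below the receptor. Most were measured, although Kit itself was not. Of 24 measured with FSK/PMA, 2 were at least 2-fold higher, Kitlg and Pik3r1, and 1 was lower, Gab1, with a median of -0.08, or 0.05 with arrays scaled to their medians. Pik3r1, the regulatory subunit of phosphoinositide 3-kinase, had 558 with Ad-NFIL3 and FSK/PMA, 706 with Ad-GFP and FSK/PMA and 208 without stimulus, 3.39-fold higher with FSK/PMA, or 0.37 on the log2 scale, inside 2-fold, with the floor at 547. Gab1, a docking protein of receptor tyrosine kinases, had 591 with Ad-NFIL3 and FSK/PMA, 405 with Ad-GFP and FSK/PMA and 1596 without stimulus, 3.94-fold lower. Pik3r1 and Gab1 were read by probe sets that can bind several transcripts and were not measured without such probe sets. Many receptors use both genes. Adam17, a protease that can release membrane proteins such as KIT ligand, had signals of 3745 with Ad-NFIL3 and FSK/PMA, 4226 with Ad-GFP and FSK/PMA and 4228 without stimulus. With NFIL3, 0 of 24 were past 2-fold, against 2.3% of all measured genes. The median was 0.11, or -0.13 with arrays scaled to their medians.

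**Figure D3:**
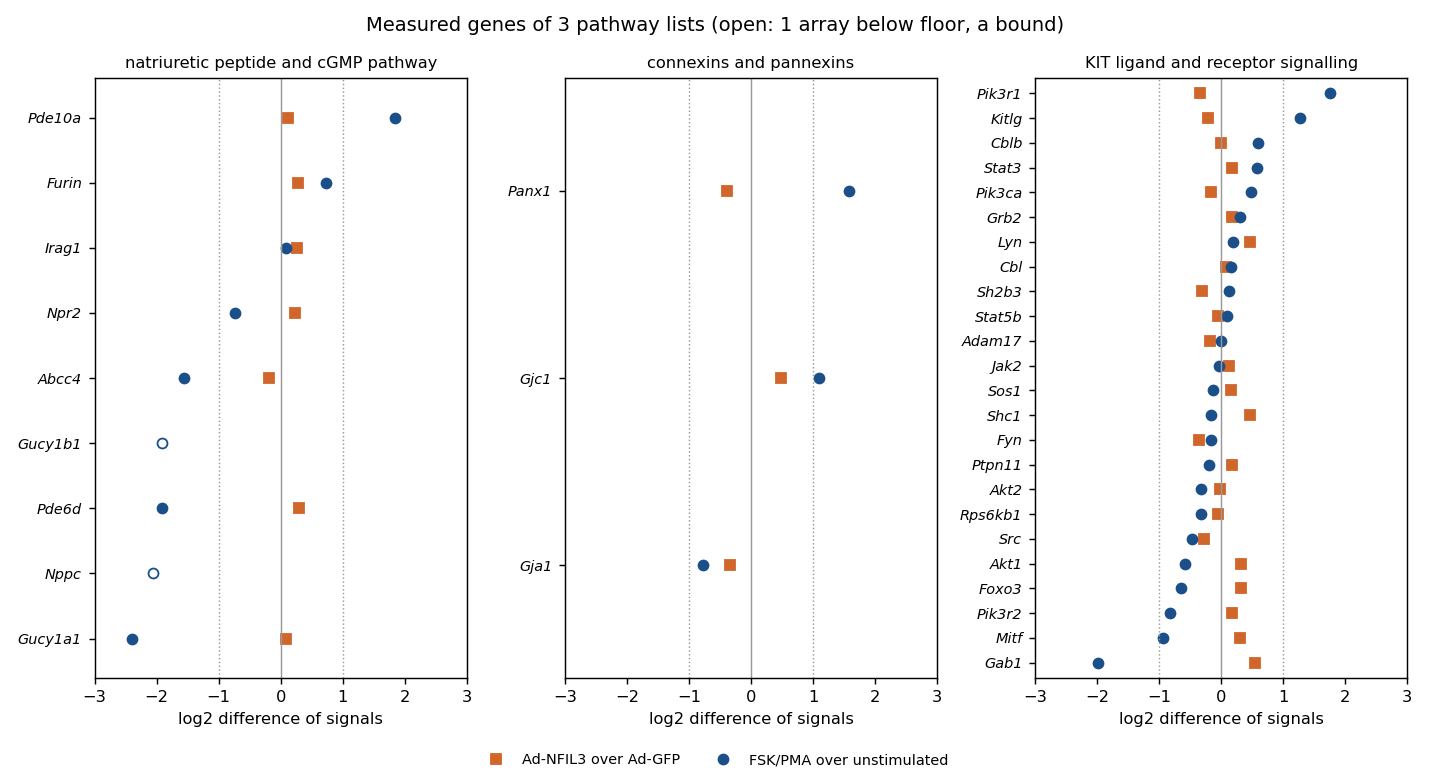
Log2 differences (horizontal axis) of the measured genes of the natriuretic peptide and cGMP, connexin and pannexin, and KIT lists, with squares for Ad-NFIL3 over Ad-GFP under FSK/PMA and circles for FSK/PMA over unstimulated, open where 1 array was below the floor. Dotted lines mark 2-fold. In the cGMP list 5 of 9 circles lie left of the lower line, those of Nppc and Gucy1b1 open, and no square of the 3 lists passes either line.

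The genes whose pattern over the 3 arrays lay closest to those of Nppc and Kitlg were found by the distance between their pairs of log2 differences, among 8840 genes above the floor on at least 2 arrays. For Nppc, whose NFIL3 difference is 0 because both signals were at the floor, these were Smad9 (distance 0.03), Ephx1 (0.06) and Tmem245 (0.09). Smad9, a transducer of bone morphogenetic protein signals, was 4.14-fold lower with FSK/PMA and Tmem245 was 4.33-fold lower. Ephx1, an epoxide hydrolase, had signals of 803 with Ad-NFIL3 and FSK/PMA, 813 with Ad-GFP and FSK/PMA and 3257 without stimulus. For Kitlg they were Pex5, the receptor that brings proteins into peroxisomes, Cdr2 and Trmt12, at distances of 0.02, 0.04 and 0.04. Pex5 was 2.38-fold and Trmt12 2.47-fold higher with FSK/PMA, with Cdr2 between them. With 3 arrays, many genes share such a pattern, and nearness is a description only.

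**Figure D4:**
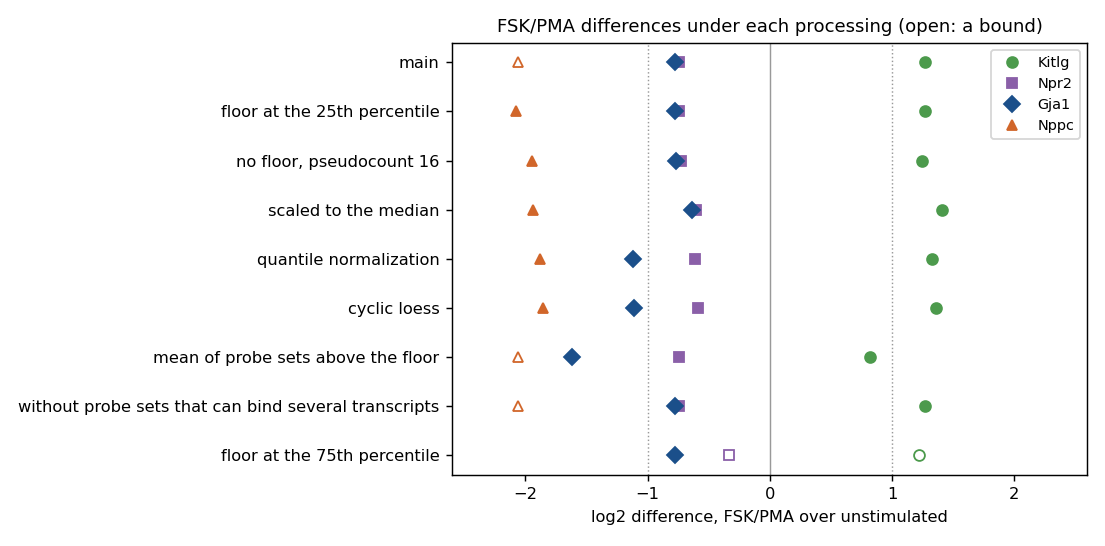
Log2 difference of FSK/PMA over unstimulated (horizontal axis) for Kitlg, Npr2, Gja1 and Nppc under the main processing and each alternative (rows), open where 1 array was below the floor. Nppc has no point with the floor at the 75th percentile, and Gja1 passes the lower 2-fold line with quantile normalization (-1.12), cyclic loess (-1.11) and the mean of its probe sets (-1.62), where Kitlg lies inside 2-fold (0.82).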

How the data were processed

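RNA of 3 groups, 1 array each, was measured on Affymetrix rat genome arrays. Per the submitters' processing notes the deposited intensity values were made with MAS5, whose version the sources do not give, and they are linear. The 2% trimmed mean was 500 in each deposited column. Arrays were brought to exactly the same trimmed mean, then floored at 126 and put on the log2 scale. A difference of 2-fold or more was counted. Probe sets were named by the platform annotation, with symbols updated by Entrez ID to the RefSeq table of GRCr8. Of the probe sets, 20832 had 1 symbol, 436 several and 9831 none. Of 176 entries in 10 gene lists, 143 matched. All members are named, and list genes past 2-fold in the main setting of either comparison. Other list genes in the text were chosen after their values were seen. Hba-a3 was listed under an older symbol. For Nppc and Kitlg the 3 nearest patterns are named. The members and lists were chosen with earlier results of these data known. The TGACG and TATAAA searches were added to the motifs listed at first. The code was tested on simulated data. Python 3.11.15, pandas 2.3.3 and limma 3.58.1 (quantile and cyclic loess alternatives) were used. Alternatives covered the floor, the scaling and the choice of probe set. With 1 array per group, the number of arrays limits the precision.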

Additional observations from a re-analysis of the deposited data

How the results depend on the processing

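No paired analysis was possible because each group had 1 array. Over 8 alternatives, the count of genes past 2-fold with FSK/PMA was 2, Nppc and Kitlg, as in the main setting, except that it was 1 (Kitlg) with a floor at the 75th percentile, where Nppc lay below the floor on both arrays, and 3 with quantile normalization and with cyclic loess, where Gja1 joined at -1.12 and -1.11. With the mean of probe sets it stayed at 2, but the genes were Nppc and Gja1 (-1.62), and Kitlg was at 0.82, since a probe set below the floor on both arrays entered its mean. The count with NFIL3 was 0 in every setting. Of 54 single-gene differences under the alternatives, 46 moved by less than the robust SD between probe sets, 8 by more, and 0 of the differences past 2-fold changed sign. Over all settings the FSK/PMA difference ranged from -2.07 to -1.86 for Nppc, 0.82 to 1.41 for Kitlg, -0.74 to -0.33 for Npr2 and -1.62 to -0.63 for Gja1. Npr2 with NFIL3 ranged from -0.01 to 0.23. Scaling each array to its median moved the median of all genes from -0.10 to 0.03 with FSK/PMA and from 0.03 to -0.20 with NFIL3. The higher share of all genes past 2-fold was 39.5% in the main setting and 50.1% with that scaling for FSK/PMA, and 58.3% and 20.2% for NFIL3. Kit, Gja4 and Gjb2 stay limited by their low signal.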
